A study of Homo sapiens with 18 samples.

Results

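The anti-YTHDF1 chromatin peaks of wild-type A549 cells (WT) were compared with those found after siRNA knockdown of ARID1A (siARID1A). Peaks of 2 WT and 2 siARID1A lists on chromosomes 1 to 22 and X were merged, which gave 117748 regions. The same merging over the 12 peak lists analysed from the series gave 194611. An overlap of 1 bp with a peak sufficed for a list to hold a region. All 4 lists held 10275 regions, called kept here (8.73%). Both WT lists and neither siARID1A list held 2203 (WT-only, 1.87%). Both siARID1A lists and neither WT list held 3892 (siARID1A-only, 3.31%). The other 101378 regions were held by 1 list or by another mixture of lists.

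A549 is a human lung cancer cell line. In CUT&Tag, an antibody bound in permeable cells recruits a protein A/G-tethered Tn5 transposase, which places sequencing adapters into nearby DNA. The series profiled WT, siARID1A and YTHDF1-knockout (YTHDF1-KO) cells with antibodies against YTHDF1, against ARID1A and with normal IgG, with 2 samples each. The WT cells carry the label genotype WT, and no control siRNA is named for them in the labels. Nothing in the labels says that the 2 samples of a group were grown separately. The p-values below therefore refer to sample-to-sample spread, part of which may be technical.

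YTHDF1 belongs to the YTH family of proteins that read N6-methyladenosine in RNA, and it is best known for acting on messenger RNA in the cytoplasm. The mark is placed on newly made RNA in the nucleus by the METTL3 and METTL14 writer complex. ARID1A is the DNA-binding subunit of the canonical BAF form of the SWI/SNF remodeller, which moves nucleosomes at enhancers and promoters and which is often mutated in lung and other cancers.

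Promoters that lay at regions of each class are shown so that a reader can see what kind of start site was called. They are the list genes of highest percentile of signal whose strongest peak covers the promoter window: TIGAR and BARD1 for siARID1A-only, CCNA2 and DDX1 for WT-only, and THOC6 and BBC3 for kept regions. Each sequence runs from 250 bases before to 50 bases after the gene's start, 5′ to 3′ on the gene's strand, from RefSeq, build GRCh38.p14. Capitals mark 4 motifs searched on both strands: the AP-1 site TGANTCA, the CRE TGACGTCA, the GC box GGGCGG and the CCAAT box CCAAT.
TIGAR: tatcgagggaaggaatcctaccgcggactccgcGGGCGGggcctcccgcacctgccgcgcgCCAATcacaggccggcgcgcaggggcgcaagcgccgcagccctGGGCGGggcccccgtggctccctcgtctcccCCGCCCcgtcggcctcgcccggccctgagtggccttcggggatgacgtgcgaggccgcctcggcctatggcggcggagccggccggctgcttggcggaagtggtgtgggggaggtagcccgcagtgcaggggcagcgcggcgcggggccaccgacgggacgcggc
BARD1: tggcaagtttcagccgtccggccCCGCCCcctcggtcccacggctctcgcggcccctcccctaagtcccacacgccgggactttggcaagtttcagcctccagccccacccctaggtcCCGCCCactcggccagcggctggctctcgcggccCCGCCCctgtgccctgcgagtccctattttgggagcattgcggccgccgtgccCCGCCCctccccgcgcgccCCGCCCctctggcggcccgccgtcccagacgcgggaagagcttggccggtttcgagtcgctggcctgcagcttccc
CCNA2: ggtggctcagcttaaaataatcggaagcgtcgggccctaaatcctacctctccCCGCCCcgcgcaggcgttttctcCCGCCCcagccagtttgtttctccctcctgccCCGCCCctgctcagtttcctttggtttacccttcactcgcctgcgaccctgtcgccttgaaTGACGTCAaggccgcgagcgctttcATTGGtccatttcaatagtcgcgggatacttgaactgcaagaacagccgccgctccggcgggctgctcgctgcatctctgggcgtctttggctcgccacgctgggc
DDX1: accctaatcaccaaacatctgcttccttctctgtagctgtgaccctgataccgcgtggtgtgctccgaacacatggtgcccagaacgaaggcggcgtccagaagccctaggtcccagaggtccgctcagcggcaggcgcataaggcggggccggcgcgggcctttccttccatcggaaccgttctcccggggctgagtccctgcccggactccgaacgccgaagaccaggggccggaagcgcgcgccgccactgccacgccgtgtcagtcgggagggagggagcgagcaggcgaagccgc
THOC6: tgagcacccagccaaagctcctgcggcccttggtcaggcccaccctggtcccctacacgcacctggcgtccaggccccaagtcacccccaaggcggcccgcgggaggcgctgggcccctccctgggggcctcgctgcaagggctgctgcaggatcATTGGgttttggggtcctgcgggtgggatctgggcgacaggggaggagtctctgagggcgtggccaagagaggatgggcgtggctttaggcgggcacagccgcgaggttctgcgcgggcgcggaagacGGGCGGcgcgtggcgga
BBC3: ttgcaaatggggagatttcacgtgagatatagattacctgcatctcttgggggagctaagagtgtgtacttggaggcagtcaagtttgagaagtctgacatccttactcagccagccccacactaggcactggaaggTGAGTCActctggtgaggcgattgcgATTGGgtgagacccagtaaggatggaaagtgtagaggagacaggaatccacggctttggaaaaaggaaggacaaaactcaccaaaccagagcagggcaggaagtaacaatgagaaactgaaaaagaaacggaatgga

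These windows lie at chr12:4320963-4321262 (TIGAR, plus strand), chr2:214809634-214809933 (BARD1, minus), chr4:121823834-121824133 (CCNA2, minus), chr2:15591618-15591917 (DDX1, plus), chr16:3023785-3024084 (THOC6, plus) and chr19:47232618-47232917 (BBC3, minus). The first 5 are rich in G and C, from 61.0% in CCNA2 to 78.0% in TIGAR, and the BBC3 window has 48.0%. TIGAR holds 3 GC boxes and BARD1 holds 5. CCNA2 holds 3 GC boxes, a CCAAT box and a CRE. DDX1 holds none of the 4 motifs. BBC3, at a kept region, holds the AP-1 match. Relative to the start, peak summits in siARID1A replicates 1 and 2 lay at -150 and -52 bp at TIGAR and at -90 and -404 bp at BARD1. The WT summits at CCNA2 lay at 333 and 1150 bp, and those at DDX1 at -250 and 115 bp. At THOC6 the 4 summits lay between -2541 and -1383 bp, and at BBC3 between 4166 and 5100 bp, so these kept promoters are inside wide regions rather than at their summits.

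The WT lists held 57764 and 40562 peaks in replicates 1 and 2, and the siARID1A lists held 59632 and 57354. The peaks covered 89.6 and 49.3 Mb in WT and 77.5 and 81.7 Mb in siARID1A. WT replicate 2 had the fewest peaks and WT replicate 1 the most covered sequence, so the WT lists enclosed the siARID1A lists in covered length. The mean peak number was 49163 ± 12164 in WT and 58493 ± 1611 in siARID1A (SD, n = 2), and the ratio of geometric means, which was tested, was 1.21 (exact two-sided permutation test, p = 0.667). Covered length gave a ratio of geometric means of 1.20 (exact permutation test, p = 1), and 0.888 without WT replicate 2. With 2 lists against 2 the smallest p this test allows is 0.333. The sequencing depth is unknown. The highest signal of every peak was a whole multiple of 1 step (to within 0.01 steps), the same for all peaks of a list, and the median peak reached 4 steps in each of the 4 lists. A step was 10.3 and 8.48 signal units in WT replicates 1 and 2, and 0.322 and 0.761 in siARID1A. The deposited signal therefore stands on different scales in the 2 conditions. The sources used here do not say what a step stands for. A single peak over the mitochondrial genome carried 27.8% and 38.5% of all signal in the WT lists and 31.4% and 32.0% in the siARID1A lists.

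Most regions were called in 1 list. WT replicates 1 and 2 alone held 21282 and 13575 regions, and siARID1A replicates 1 and 2 alone held 23407 and 21163. Regions of 3 lists numbered 4910 without WT replicate 2, 1892 without siARID1A replicate 1, 1651 without siARID1A replicate 2 and 1400 without WT replicate 1. Mixed pairs, of 1 WT and 1 siARID1A list, numbered 4187 and 4501 for WT replicate 1 with siARID1A replicates 1 and 2, and 1674 and 1736 for WT replicate 2 with the same lists. The 2203 WT-only and 3892 siARID1A-only regions both lie within the range of these 4 mixed counts. Pairs with WT replicate 2, the shortest list, were the fewest in each case.

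**Figure D1:**
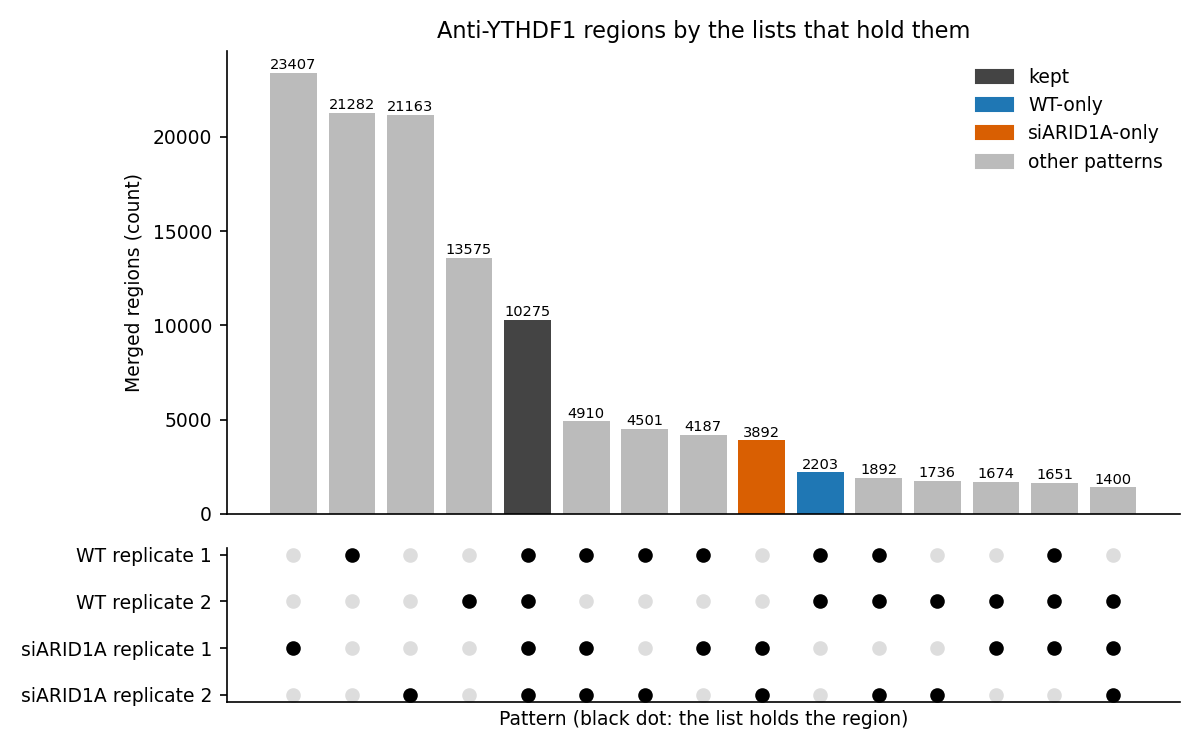
Bars give the number of merged anti-YTHDF1 regions for each of the 15 patterns of lists that hold them, and black dots under a bar mark the lists. Single-list patterns are the 4 tallest bars, the kept regions follow with 10275, and the siARID1A-only (3892) and WT-only (2203) bars stand among those of mixed pairs.

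The ratio of siARID1A-only to WT-only regions was 1.77. It fell to 1.16 when each list was shortened to its 40562 strongest peaks, with 2556 siARID1A-only and 2211 WT-only regions. With only the peaks above the median signal of each list, 6025 regions were kept, 1103 were WT-only and 2162 were siARID1A-only. Where a list had to cover at least 50% of a region to hold it, 2445 regions were kept. Without 1 list, a condition's own regions need only the remaining list: WT-only regions numbered 16592 without WT replicate 1 and 23977 without WT replicate 2, and siARID1A-only regions numbered 26069 and 28447 without siARID1A replicates 1 and 2. Regions that the other condition had to lack were also more, with 9485 siARID1A-only without WT replicate 1, and with 4028 and 4314 WT-only without siARID1A replicates 1 and 2.

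Across conditions, 31.0% to 48.0% of the peaks of a list overlapped another list, against 33.1% to 50.9% between replicates of 1 condition. The 2 lowest values, 31.0% and 32.3%, were the siARID1A lists in WT replicate 2, the shortest list. Of the peaks of WT replicate 1, 33.1% overlapped WT replicate 2, and 44.4% and 45.9% overlapped siARID1A replicates 1 and 2. Of the peaks of WT replicate 2, 50.9% overlapped WT replicate 1, and 46.5% and 48.0% overlapped the siARID1A lists. The siARID1A lists overlapped one another by 43.9% and 44.2%. Among the strongest 10% of each list by total signal, 84.4% to 96.0% of peaks overlapped a given other list, against 11.8% to 30.2% of the weakest 10%.

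The share of peaks in kept regions was larger in each stronger group of peaks, in every list. In the strongest 10% it was 86.3% and 90.8% in the WT lists and 85.6% and 86.8% in the siARID1A lists. In that group 0.66% and 1.01% of WT peaks lay in WT-only regions, and 1.39% and 1.06% of siARID1A peaks lay in siARID1A-only regions. In each list the strongest group held the smallest share of such peaks.

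**Figure D2:**
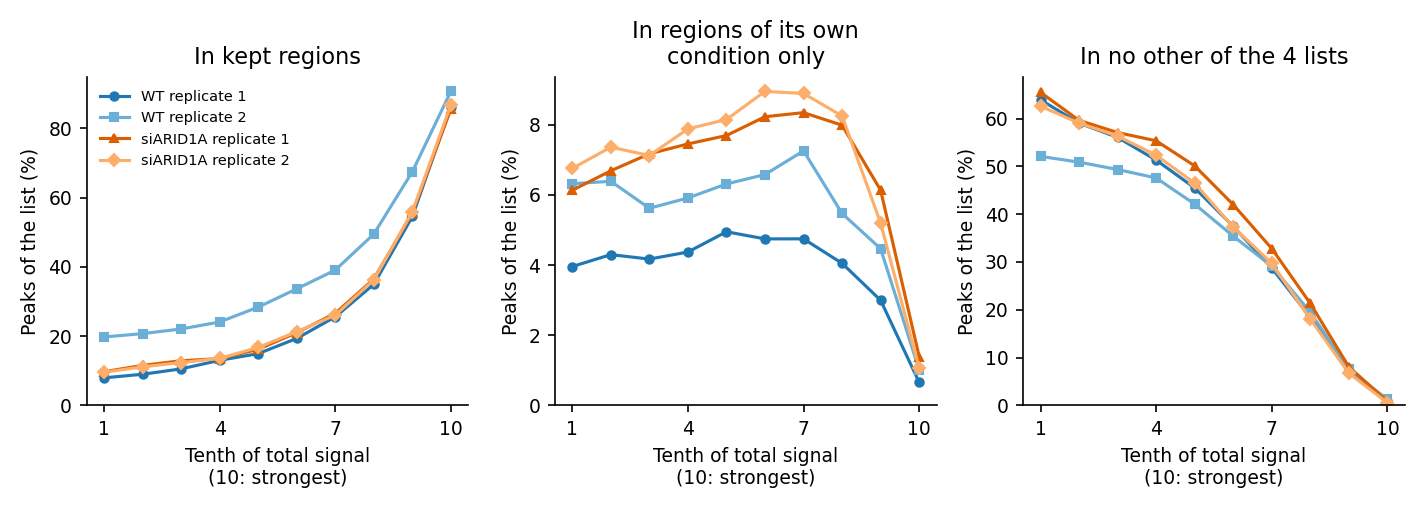
Each line is 1 anti-YTHDF1 list, with its peaks sorted into 10 equal groups by total signal (x axis, 10 strongest) and the percentage of peaks of each group in kept regions, in regions of the list's own condition only, and in no other of the 4 lists (y axes). The strongest group lies 85.6% to 90.8% in kept regions and at most 1.39% in regions of 1 condition.

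Kept regions were wide and strong. Their median width was 3604 bp, against 1651 bp for WT-only and 1611.5 bp for siARID1A-only regions. A region merged from more lists is wider by construction. Percentiles of total signal, in which 100 is the strongest peak of a list, had medians of 85.9 and 78.4 in WT and 85.7 and 85.7 in siARID1A for the strongest peak of a kept region. WT-only regions had medians of 45.9 in both WT lists, and siARID1A-only regions had 48.9 and 47.7. Both classes therefore sat near the middle of their lists, as did regions of 1 WT and 1 siARID1A list, with medians of 42.5 to 47.2 and a median width of 1642 bp. Summits of 4 steps or fewer made up 60.8% and 73.9% of WT-only regions and 70.4% and 67.6% of siARID1A-only regions, against 13.7% to 32.7% of kept regions.

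Summit positions differed across conditions about as much as between replicates. In the 4390 kept regions with 1 peak in every list, the median distance between summits was 238 bp between the WT lists, 226.5 bp between the siARID1A lists and 222 to 254 bp across conditions.

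Kept regions lay at gene starts in a larger share than both others. Place was read over the whole region, so width enters these shares. Of kept regions, 34.1% lay within 1 kb of a protein-coding gene start, against 9.17% of WT-only, 13.1% of siARID1A-only and 9.60% of all regions. Gene bodies held 3796 kept (36.94%), 1167 WT-only (52.97%) and 1884 siARID1A-only regions (48.41%), against 48.82% of all regions. In the same order, 564 (5.49%), 162 (7.35%) and 292 (7.50%) lay in long non-coding RNA genes, against 8.76% of all regions. Of kept, WT-only and siARID1A-only regions, 23.5%, 30.5% and 31.0% were intergenic. The median distance to a start was 7235.5 bp for kept, 23197.5 bp for WT-only and 19220 bp for siARID1A-only regions. Of WT-only and siARID1A-only regions, 32.4% and 33.5% lay within 10 kb of a kept region. MicroRNA genes were at 255 kept (2.48%), 6 WT-only (0.27%) and 14 siARID1A-only regions (0.36%), against 0.46% of all regions. For tRNA genes, which RNA polymerase III transcribes, the numbers were 55 (0.54%), 3 (0.14%) and 10 (0.26%), against 0.12% of all.

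Promoters at the 3 classes resembled one another more than promoters without a region. The RefSeq promoter table lists 15812 of 19974 protein-coding genes, and a region overlapping the 300-base window was counted. Median GC content was 67.0% for 3658 kept, 65.0% for 142 WT-only and 66.0% for 414 siARID1A-only promoters, against 55.7% for 6628 with no region and 62.7% for all. A median of 27, 26 and 28 CpG pairs stood in the 3 classes and 11 where there was no region. GC boxes were found in 75.9% of kept, 66.9% of WT-only and 73.7% of siARID1A-only promoters and in 58.3% of all. The ETS motif CCGGAAG was found in 16.0%, 18.3% and 21.3%, against 14.1% of all. AP-1 matches were found in 4.29%, 4.93% and 4.11%, under the 5.70% of all promoters. The TATA box TATAAA was found in 5.17%, 4.93% and 5.80%, against 9.75% of all and 15.5% where there was no region. ETS and TATA letters were searched on both strands as well.

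The strongest kept regions were multi-copy sequence. The highest summits, 1885 to 2994 steps, stood at the end of chromosome 5 (chr5:9981-12344), and 1378 to 1932 steps at the end of X (chrX:156029023-156030812). A stretch of chromosome 1 (chr1:628759-634932) with pseudogenes of mitochondrial genes such as MTND1P23 and MTCO1P12 reached 1674 to 1878 steps. Ribosomal RNA genes RNA45SN2 (chr21:8217397-8247857) and RNA45SN1 (chr21:8444331-8472082) and a cluster of snRNA genes (chr17:43275857-43290922) followed. The chromosome 1 stretch lies within LOC102724250, which is annotated as protein-coding. For the others the nearest protein-coding genes, such as CCDC200, lie at 17544 bp or more. Values at such copies are uncertain, since reads can be shared between them. The widest kept regions covered CACNA1H, a T-type calcium channel subunit (77070 bp), and BAHCC1, a chromatin reader of histone methylation (69538 bp).

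Among the siARID1A-only regions, the highest percentiles were at or near genes of varied function. A distance to a named gene is from the summit of the region's strongest peak. The region 1858 bp from SLC6A4, the serotonin transporter (chr17:30235989-30240216), stood at percentiles 95.8 and 92.6 with summits of 6 steps in both siARID1A lists. In the body of CYB5R3, a cytochrome b5 reductase (chr22:42617754-42621664), they were 89.6 and 96.3. At the start of BSG, the cell-surface glycoprotein basigin (chr19:570743-573509), they were 89.4 and 95.2. The summits of these regions were low, 6 or 7 steps. The others of the 8 were in the bodies of ENDOV, GPRC5C and TMEM94, all on distal chromosome 17, at the start of ZNF205 (summit 54 bp away), and 10106 bp from PCBP3, with percentiles of 87.5 to 95.2. The widest were in RPTOR, a subunit of the mTORC1 kinase complex, also on distal chromosome 17 (5679 bp, percentiles 94.4 and 86.8), and 16296 bp from FAM53A (5369 bp). Of the 8 strongest, 7 also held an anti-ARID1A peak in both WT and both siARID1A lists, and the PCBP3 region did in 1 of each. Among all siARID1A-only regions, 40.1% held an anti-ARID1A peak in both WT and both siARID1A lists, so the 8 do not stand for the class. When peaks within 500 bp were merged, ENDOV, TMEM94, ZNF205, PCBP3, CYB5R3 and FAM53A lost the siARID1A-only class, and CYB5R3 lost it with 50% cover as well.

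The strongest WT-only regions were of like height. An intergenic region 9447 bp from RABAC1 (chr19:41946190-41949439) stood at percentiles 94.0 and 90.8 in WT replicates 1 and 2. In SIGLEC1, a sialic-acid-binding receptor of macrophages (chr20:3696851-3700899), they were 87.4 and 96.2. In ZFP36L1, which encodes an RNA-binding protein that promotes decay of AU-rich messages (chr14:68788802-68792029), they were 89.1 and 89.6. Their summits were 4 to 8 steps. DNAJC25 and SWI5, the latter a recombination factor, are both on the distal part of chromosome 9, and SLC6A19, an amino acid transporter, CAMK2B, a kinase subunit, and a region 2817 bp from ID3, an inhibitor of basic helix-loop-helix factors, completed the 8. CAMK2B was the 1 of the 8 with anti-ARID1A peaks in both WT and no siARID1A list, a pattern found at 14.2% of all WT-only regions. The widest was in SARDH on distal chromosome 9 (6633 bp, percentiles 97.6 and 60.5), also with anti-ARID1A peaks in both WT lists alone. The next widest overlapped an end of TUBB8 (5665 bp), with its summit 1035 bp outside the gene. RABAC1 and SARDH lost the WT-only class when peaks within 500 bp were merged, SARDH and TUBB8 with 50% cover, and TUBB8 with only the peaks above the median signal.

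Of 19974 protein-coding genes, 5135 (25.7%) had a start within 1 kb of a kept region, 298 (1.49%) of a WT-only region and 767 (3.84%) of a siARID1A-only region. Genes without a listed start were placed by either annotated end, which applies below to SPI1, SFTPC, ZBP1, SMARCC2, TNFRSF10B, MCM5, MYC, MAFK, KRT18, EPCAM, CDH1, IRF3 and PHLDA3. These shares are the background for the gene lists, and a gene may count in more than 1 class. Several of the list genes named below lost their class under another setting: FOS, SFTPC, SPI1 and E2F1 when peaks within 500 bp were merged, SMARCC2, PARP14, NKG7, CREB5, CLSPN and MYC with 50% cover, and NKG7, VTCN1 and DDX1 with lists of equal length. With only the peaks above the median signal, SMARCC2, PARP14, NKG7, CREB5, MCM3, E2F1, MYC and VTCN1 did.

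AP-1 and ATF factors are stress- and growth-responsive transcription factors. Of 25, 16 were at kept regions, 4 at siARID1A-only regions and 0 at WT-only regions. The 4 were FOS, JUN, ATF3 and CREB5. FOS stood at percentiles 77.9 and 53.3 in siARID1A replicates 1 and 2, and CREB5 at 45.6 and 56.8. At the JUN start (chr1:58782932-58784653) the percentiles were 0.754 and 81.8, and at ATF3, which is induced by stress, they were 60.5 and 5.48. JUN and ATF3 thus rested on 1 stronger peak and 1 of the weakest of the other list. FOS and CREB5 also had a kept region in their windows, whereas JUN and ATF3 had no other. FOSB and MAFK were among the strongest kept list genes, with percentiles of 99.3 to 99.7 and 99.1 to 99.6 over the 4 lists.

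p53 pathway genes act in cell cycle arrest, apoptosis and metabolism after damage. Of 28, 15 were at kept regions, 4 at siARID1A-only regions and 0 at WT-only regions. TIGAR, which lowers glycolytic flux, was the strongest of the 4, at percentiles 58.6 and 92.2 and summits of 5 and 10 steps. CDKN1A, the cyclin-dependent kinase inhibitor p21, stood at 76.1 and 17.2 and also had a kept region in its window. TNFRSF10B, a death receptor, stood at 9.66 and 66.4, and SESN1, a sestrin, at 3.67 and 49.4. Only TIGAR among these had both percentiles above 50 and no other region in its window. BBC3, which encodes the apoptosis inducer PUMA, was at a kept region at percentiles of 99.5 to 99.8.

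Cell cycle and replication genes appeared on both sides. Of 41, 19 were at kept, 4 at WT-only and 2 at siARID1A-only regions. The WT-only members were CCNA2, cyclin A2 (percentiles 70.6 and 64.7 in WT replicates 1 and 2), MCM3, of the MCM replicative helicase (45.6 and 75.2), E2F1, a transcription factor of S-phase entry (39.6 and 71.6), and the 3′ end of MYC (73.6 and 15.9). CCNA2 and MCM3 had no region of another class in their windows, E2F1 also had a region of 1 WT and 1 siARID1A list, and MYC also had a kept one. The siARID1A-only members were CDK6, a G1 kinase (56.1 and 79.3), and MCM5, another helicase subunit (28.9 and 21.9). The WT-only share of 9.76% stands beside 1.49% of all genes, and it rests on 4 genes.

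DNA damage response genes, of which 13 of 36 were at kept regions, had BARD1, the partner of BRCA1, on the siARID1A-only side (62.9 and 75.8, summits of 8 steps in both lists). CLSPN, the checkpoint mediator claspin, was on the WT-only side (62.5 and 60.7), and its window also held a region of 1 WT and both siARID1A lists. R-loop factors, a list around RNA:DNA hybrids, include helicases, topoisomerases and THO export factors. They were at kept regions in 12 of 34, and the RNA helicase DDX1 was WT-only at percentiles of 14.1 and 35.6. The YAP-TEAD and epithelial-mesenchymal transition list had 10 of 34 at kept regions and 3 at siARID1A-only regions. These were SMAD7, an inhibitor of TGF-beta signalling (73.7 and 66.9 at the stronger of its 2 regions), SMAD3, a TGF-beta effector (64.4 and 27.4), and YAP1 (3.26 and 42.0). SMAD7 and SMAD3 also had regions in their windows that WT lists held.

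Chromatin and RNA methylation factors had few members in the classes of 1 condition, as did all protein-coding genes. Of these, 1.49% were at WT-only and 3.84% at siARID1A-only regions, beside 3.57% of SWI/SNF subunits at siARID1A-only regions. SWI/SNF subunits were at kept regions in 12 of 28, and SMARCC2, a core scaffold subunit, was the 1 at a siARID1A-only region (78.0 and 45.4), with a kept region at the other end of the gene. The m6A machinery had 9 of 23 at kept regions and 0 in both other classes, and NRF2 pathway genes, of the antioxidant response, had 15 of 30 and 0. Nucleic acid sensors had 8 of 24 at kept regions and ZBP1, a Z-nucleic-acid sensor, at a siARID1A-only one (66.3 and 65.8). Interferon-stimulated genes had 7 of 40 and PARP14 (73.6 and 39.2). Cytokine and checkpoint ligand genes had 6 of 40 at kept regions and VTCN1, the ligand B7-H4, on the WT-only side (10.2 and 54.4).

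Cell type markers were read for what the peaks cover, since a peak does not measure expression. Lung and endoderm genes were at kept regions in 12 of 40 (30.0%), with the keratin genes KRT8 and KRT18 and SFTPB among them. NKX2-1, FOXA1, EPCAM and CDH1 had regions that at most 1 list of each condition held. Haematopoietic markers were at kept regions in 4 of 23 (17.4%) and neuronal ones in 5 of 23 (21.7%), beside 25.7% of all genes. The highest mean percentile at a kept region was 99.6 for neuronal markers (SLC17A7), 98.0 for haematopoietic ones (CD79A) and 96.9 for lung and endoderm genes (FOXA3). KRT8, SFTPB and KRT18 stood at 96.8, 86.2 and 70.0. At siARID1A-only regions were SFTPC, a surfactant protein (81.1 and 50.3), SPI1 (79.2 and 63.8) and NKG7 (80.8 and 22.1), both haematopoietic, and RBFOX3, a neuronal splicing factor that also had a kept region. PTPRC, CD3D, GATA1 and NEUROD1 were among the markers with no region in their windows. Such genes made up 10 of 23 haematopoietic markers (43.5%), 9 of 23 neuronal ones (39.1%) and 10 of 40 lung and endoderm genes. Among all protein-coding genes the share was 33.0%.

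The targeted genes were followed in every list. Peaks do not show whether the knockdown lowered ARID1A. At the ARID1A start (chr1:26692020-26696228, a kept region) the strongest peak stood at percentiles 68.9 and 72.6 in WT and 79.3 and 87.5 in siARID1A. Within 1 kb of the start itself the strongest peak stood at 61.3 in WT replicate 1, with none in WT replicate 2, and at 17.8 and 74.6 in siARID1A. At the YTHDF1 start (chr20:63215903-63218228, also kept) the percentiles were 53.9 and 63.1 in WT and 77.7 and 68.5 in siARID1A. As ranks over these whole regions, both siARID1A values lay above both WT values at each gene, but within 1 kb of the ARID1A start the conditions overlapped. As centred log2 signal the difference was 0.48 ± 0.62 (SE) at ARID1A and 0.15 ± 0.60 at YTHDF1, neither past the limma threshold (adjusted p = 0.906 and 0.977).

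The 8 other lists of the series played no part in choosing the regions. Anti-ARID1A peaks of WT replicates 1 and 2 were found at 97.9% and 98.7% of kept, 72.7% and 79.1% of WT-only, and 75.2% and 81.0% of siARID1A-only regions. In siARID1A cells the anti-ARID1A lists covered 99.0 and 127.6 Mb, against 227.8 and 266.3 Mb in WT. They held 93.3% and 95.5% of kept, 44.4% and 52.5% of WT-only, and 53.4% and 62.6% of siARID1A-only regions. In every class both siARID1A shares lay below both WT shares.

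The excess of siARID1A-only over WT-only regions in those shares was 2.49 and 1.87 percentage points in the WT anti-ARID1A lists and 8.95 and 10.1 points in the siARID1A ones. Both siARID1A values lay above both WT values, a mean gap of 7.36 points (exact two-sided permutation test, p = 0.333, the smallest possible). In YTHDF1-KO anti-ARID1A lists the excess was 5.19 and 5.46 points. Without chromosome 2 and the distal parts of chromosomes 9 and 17 it was 2.29 and 2.49 points in WT and 7.31 and 8.25 in siARID1A, with 4.04 and 2.85 in the YTHDF1-KO anti-ARID1A lists. Leaving out 1 anti-YTHDF1 list gave gaps of 3.47 to 5.42 points. Anti-ARID1A peaks in both WT and no siARID1A list were found at 14.2% of WT-only, 9.84% of siARID1A-only and 1.34% of kept regions.

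The anti-YTHDF1 lists of YTHDF1-KO cells, in which the target should be missing, held 79.2% and 79.1% of kept regions. They held 27.5% and 27.5% of WT-only and 29.0% and 28.1% of siARID1A-only regions. Most kept regions were therefore also called in the knockout cells, and the excess of siARID1A-only over WT-only regions there was 1.49 and 0.595 points. Without chromosome 2 and the distal parts of chromosomes 9 and 17 it was -0.13 and -1.73 points. How much of the anti-YTHDF1 signal depends on YTHDF1 was not tested.

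**Figure D3:**
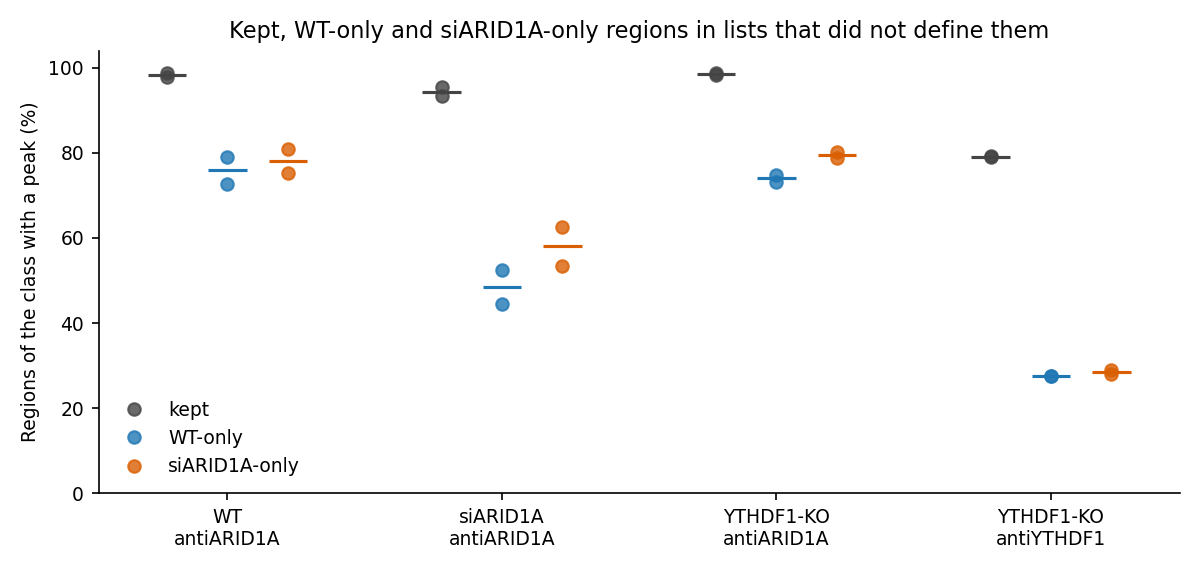
Points give the percentage of kept, WT-only and siARID1A-only regions (y axis) with a peak in each of 8 lists that did not define them, grouped by genotype and antibody (x axis), and short lines are the means of 2 lists. Kept regions lie at 93.3% or above in the 6 anti-ARID1A lists and near 79% in the YTHDF1-KO anti-YTHDF1 lists, and the classes of 1 condition lie lower in all 8.

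The classes of 1 condition were spread unevenly along the genome. Chromosome 9 held 207 WT-only and 89 siARID1A-only regions, a ratio of siARID1A-only to WT-only of 0.430. Chromosome 17 held 133 and 550, a ratio of 4.14. On the other chromosomes it was 1.16 (chromosome 14) to 2.53 (chromosome 19). Most of these lay in the distal parts. From 80 Mb on, chromosome 9 held 188 WT-only, 52 siARID1A-only and 342 kept regions. From 40 Mb on, chromosome 17 held 54 WT-only, 412 siARID1A-only and 756 kept regions. These 2 parts were chosen with the data known.

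**Figure D4:**
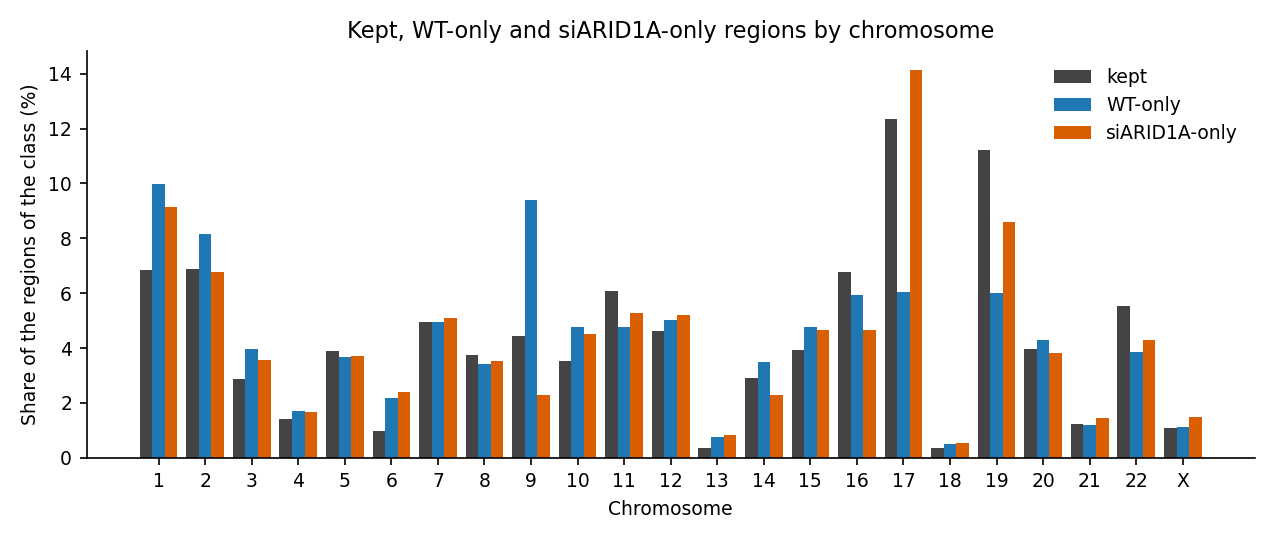
Bars give the share of kept, WT-only and siARID1A-only regions (y axis, percent of the class) on each chromosome (x axis). Chromosome 9 holds 9.40% of WT-only and 2.29% of siARID1A-only regions, and chromosome 17 holds 6.04% and 14.1%.

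Signal within the kept regions differed on the same parts. On distal chromosome 9 the median centred log2 total signal was 0.34 and 0.30 in WT replicates 1 and 2 and -0.23 and -0.35 in siARID1A, a median difference of -0.58. On distal chromosome 17 it was 0.17 and 0.07 in WT and 0.59 and 0.68 in siARID1A, a median difference of 0.40. Over the rest of the genome, chromosome 2 apart, the median difference was -0.04. Both siARID1A lists lay below both WT lists in 167 of 342 kept regions on distal chromosome 9 (48.8%) and above both in 319 of 756 on distal chromosome 17 (42.2%). Among all kept regions these shares were 19.2% and 18.3%. The anti-ARID1A lists of the same 2 conditions differed in the same direction over these kept regions, with median differences of -0.89 on distal chromosome 9 and 0.48 on distal chromosome 17. The latter was not particular to that part. On chromosomes 4, 13, 18, 21 and X the anti-ARID1A median differences were 0.48, 0.74, 0.72, 0.57 and 0.58. The anti-YTHDF1 ones there were -0.07, -0.08, -0.15, -0.22 and 0.01. On chromosome 19 the anti-ARID1A value was -0.45 and the anti-YTHDF1 value 0.003. Whether DNA copy number on these parts differs between the cultures was not tested. Without chromosome 2 and the 2 distal parts, 8469 kept, 1781 WT-only and 3164 siARID1A-only regions remained, a ratio of 1.78.

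No kept region passed the test of its signal. Total signal was summed per region and list, log2-transformed and centred on the median of kept regions in each list. limma called 0 of 10275 regions higher and 0 lower in siARID1A at an adjusted p under 0.05 (0% each), and the lowest adjusted p was 0.0970. At an unadjusted p under 0.05 there were 344 higher and 455 lower, but 354 and 299 by highest signal and 234 and 193 among regions above the median signal. Of all kept regions, 87.7% differed by less than 1 on the log2 scale, and the middle 90% ran from -1.15 to 0.99. The median SE was 0.59. Without WT replicate 1, limma called 24 higher and 10 lower. Leaving out WT replicate 2 gave 0 and 0, siARID1A replicate 1 gave 0 and 2, and siARID1A replicate 2 gave 0 and 4. Quantile normalization called 3 and 6.

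The largest differences with no overlap between conditions lay on 3 chromosomes. The 5 higher in siARID1A were all on distal chromosome 17. A region 11131 bp from TEX19, a germ-line gene (chr17:82343337-82350436), had centred log2 signal of -1.79 and -1.35 in WT and 0.76 and 1.34 in siARID1A, a difference of 2.62 ± 0.66 (SE, limma adjusted p = 0.227). At LGALS3BP, a secreted galectin-binding glycoprotein (chr17:78970661-78982357), it was 0.27 and -1.31 in WT and 2.24 and 1.65 in siARID1A, a difference of 2.46 ± 0.53 (limma adjusted p = 0.165). Summits at LGALS3BP reached 5 and 3 steps in WT and 10 and 12 in siARID1A. The others were a region near FADS6 (2.46), the start of KCTD2 (2.23) and the body of USH1G, a scaffold protein of inner-ear hair cells (2.14).

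Of the regions lower in siARID1A, 3 were on distal chromosome 9, and the region near PPIAP60 was on chromosome 2. At the start of TRAF2, a signal adaptor of TNF receptors (chr9:136884419-136887966), the values were 0.62 and 1.08 in WT and -1.43 and -1.86 in siARID1A, a difference of -2.50 ± 0.66 (SE, limma adjusted p = 0.290). The others were near LCN10 (-2.81), near PPIAP60 (-2.78) and near NACC2 (-2.69). By the highest signal of a region in place of its total, the differences were smaller, from 0.33 at KCTD2 to 1.48 at LGALS3BP for the 5 higher regions, and -0.70 at TRAF2, -1.04 near LCN10, -1.93 near NACC2 and -2.14 near PPIAP60.

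The 5 regions of smallest p, taken after their values were seen, included 4 outside these chromosome parts. The body of DNM1, the neuronal dynamin of vesicle fission, on distal chromosome 9 (chr9:128238704-128248995), had 2.01 and 2.21 in WT and -0.48 and -0.24 in siARID1A (difference -2.47 ± 0.44, limma adjusted p = 0.0970). BRF1, which encodes a subunit of the RNA polymerase III factor TFIIIB (chr14:105228750-105242252), had 3.25 and 3.33 against 1.83 and 1.87 (difference -1.44 ± 0.28, limma adjusted p = 0.0970). LAMP1, a lysosomal membrane glycoprotein (chr13:113312795-113315599), had 3.18 and 3.34 against 1.76 and 1.95 (difference -1.41 ± 0.28, limma adjusted p = 0.108), with summits of 80 and 45 steps in WT and 23 and 30 in siARID1A. In each the conditions did not overlap. The other 2 were chr3:93470341-93470819 (difference 1.07), with PROS1 nearest at 402481 bp, and chr16:46386099-46392523 (1.37), with SHCBP1 nearest at 188464 bp. Summits at the former, a region of 479 bp, were 539 and 346 steps in WT and 1057 and 971 in siARID1A. The median peak of each list reached 4 steps, so this region is far from an ordinary one in height. By highest signal the differences were -1.06 at DNM1, -0.71 at BRF1 and -1.21 at LAMP1.

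**Figure D5:**
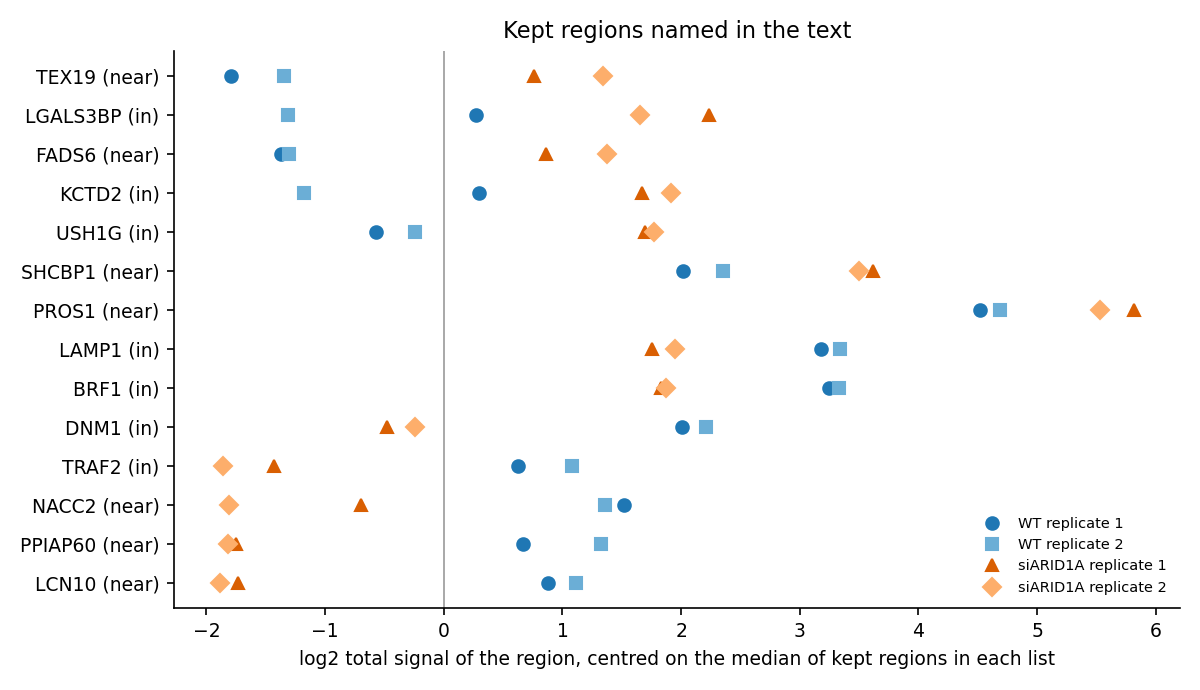
Points give log2 total signal of named kept regions in each of the 4 lists (x axis), centred on the median of all kept regions of that list, and "in" or "near" says whether the region lies in the gene or the gene is the nearest (y axis). The regions were picked for the largest differences without overlap or for the smallest p. That the 2 WT points lie on one side of the 2 siARID1A points in each therefore largely follows from the choice. None of the regions passed limma at an adjusted p under 0.05.

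No list had a kept region past the limma threshold. Beside the median difference of -0.02 over all kept regions, list medians ran from -0.36 for 9 regions of nucleic acid sensors to 0.61 for 12 regions of R-loop factors. Both siARID1A lists lay above both WT lists in 7 of the 12 R-loop regions and below in 2, beside 18.3% above and 19.2% below among all kept regions. Of those 12, 4 were on distal chromosome 17, and the other 8 had a median of 0.42, with 4 above and 2 below. Among the sensors, both siARID1A lists lay below in 5 of 9 regions and above in 0, and the 7 off the 3 chromosome parts had a median of -0.40. Among R-loop factors, TOP2A, a DNA topoisomerase on distal chromosome 17, had -1.83 and -0.78 in WT against -0.30 and 0.45 in siARID1A (difference 1.38 ± 0.68 SE), and THOC5 of the THO export complex had -1.61 and -1.19 against -0.23 and -0.33 (1.12 ± 0.61). Among sensors and their regulators, TREX1, a cytosolic DNA exonuclease, had 1.10 and 0.34 against -0.50 and -0.58 (-1.26 ± 0.60), and IRF3, the interferon transcription factor, had 3.08 and 3.30 against 2.59 and 2.54 (-0.62 ± 0.26). These 4 do not overlap between conditions, and limma's adjusted p ran from 0.600 to 0.692. By highest signal their differences were 0.49 at TOP2A, 0.69 at THOC5, -0.74 at TREX1 and -0.25 at IRF3. TOP2A, THOC5 and TREX1 were picked after their values were seen, and all 4 go with the median of their list. Against that median went SAMHD1 (-0.52), PIF1 (-0.41) and DDX41 (-0.28) among R-loop factors. Among sensors, MAVS (0.16) and both regions of DHX58 (0.56 and 0.11) did.

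Single list genes at kept regions differed in both directions. PHLDA3, a p53 target that restrains AKT, had -1.52 and -1.40 in WT and 0.47 and 0.46 in siARID1A (difference 1.92 ± 0.66 SE, limma adjusted p = 0.528) at one of its kept regions. At the other (chr1:201460552-201463972) it had 0.62 and 1.24 against -0.19 and 0.60, a difference of -0.72. NFE2L1, a regulator of proteasome genes on distal chromosome 17, had 1.40 and 1.27 against 2.37 and 2.56 (1.13 ± 0.32), and JUNB, an AP-1 factor, had 0.80 and 1.02 against 1.91 and 1.96 (1.02 ± 0.37). VIM, the mesenchymal filament protein, had -0.29 and -0.58 against 0.99 and 0.73 (1.29 ± 0.56). On the lower side stood CCNE1, cyclin E1, with -0.58 and 0.44 against -1.49 and -1.73 (-1.54 ± 0.63), and KRT8 with 1.89 and 1.81 against 1.19 and 0.18 (-1.16 ± 0.42). None passed limma, with adjusted p from 0.381 to 0.614, and these 6 were picked after their values were seen. By highest signal the difference was -0.0041 at JUNB, -0.52 at CCNE1, -0.76 at KRT8, 0.73 at NFE2L1, 0.99 at VIM and 0.97 at the first PHLDA3 region. The strongest list genes had differences of 0.28 at THOC6, 0.40 at BBC3, 0.17 at SLC17A7, -0.14 at FOSB, 0.18 at MAFK, -0.05 at TUBB3 and -0.18 at FTL, the ferritin light chain. By highest signal FOSB (0.51) and FTL (0.15) had the opposite sign, and the values were 0.75 at THOC6, 0.17 at BBC3, 0.55 at SLC17A7, 0.27 at MAFK and -0.02 at TUBB3.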

How the data were processed

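The deposited peak lists have 6 columns and no header: a position, the total signal, the highest signal and its place, in the authors' own units. The submitters' processing notes name SEACR 1.3 as a tool beside Bowtie2 2.4.2, hg38, fastp 0.23.2, deepTools 3.5.2, bedtools 2.30.0 and SAMtools 1.9. Lists are per sample. Their settings, and whether IgG served as control, are not given in these sources. IgG samples were not analysed here. Depth is unknown, so signal was tested only after centring, and summit steps, which are not centred, only describe each list.

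Peaks were merged and counted with Python 3.11.15 and pandas 2.3.3. Gene positions came from RefSeq, GRCh38.p14. A gene was placed by its listed start (15812 of 19974) or else by either end, and coordinates are 1-based. Kept regions were tested with limma 3.58.1 in R 4.3.3 (trend, Benjamini-Hochberg), checked on simulated data: of 50 regions changed by 1, 2, 3 and 4 on the log2 scale, 8%, 46%, 100% and 100% were recovered, with 7 false calls. The simulation gave every region the same SD (0.59), whereas the real spread differed between regions. These shares therefore do not give the power in the real data. Real differences of -2.81 near LCN10 and 2.62 near TEX19 were not called. Named were the 8 regions of highest mean percentile and the 2 widest per class, list genes by percentile (at most 12, or 8 for kept), and 5 kept regions per direction, of which 1, and 1 list gene, are not reported here. The members, 15 gene lists and rules were chosen with earlier results of these data known. Alternatives were shorter lists, a stricter overlap, wider merging, other scaling, left-out chromosomes and left-out lists.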

Additional observations from a re-analysis of the deposited data

How the results depend on the processing

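Depth is unknown, so calls near the threshold cannot be weighed by read number, and 2 lists a condition allow no exact p under 0.333. With 50% coverage required, 2445 regions were kept, 1669 genes lay near kept and 450 near WT-only regions. With lists of equal length, siARID1A-only regions numbered 2556 and their ratio to WT-only was 1.16. With peaks above the median, the classes held 6025 kept, 1103 WT-only and 2162 siARID1A-only regions. A 3 kb window put 533 genes near WT-only regions. Quantile normalization called 3 kept regions higher and 6 lower. Leaving out each list in turn gave 12096 to 15422 kept, 4028 to 23977 WT-only and 5424 to 28447 siARID1A-only regions, 738 to 1730 genes near WT-only and 1226 to 2410 near siARID1A-only regions, ratios of 0.226 to 6.59 (0.572 without WT replicate 1 and 0.226 without WT replicate 2, both reversed), share gaps of 3.47 to 5.42 points, covered length ratios of 0.888 (reversed, without WT replicate 2) to 1.61, and 0 to 24 higher and 0 to 10 lower kept regions. The remaining single list then stands for its condition, which enlarges that condition's class by construction. Of 40 named regions of 1 condition, 13 lost their class with peaks within 500 bp merged, 10 with 50% coverage, 9 with peaks above the median and 3 with lists of equal length. With the replicate block, limma called 9 higher and 9 lower regions, and the peak number and covered length ratios stayed at 1.21 and 1.20. The labels give only shared numbers, and same-numbered samples did not deviate together (correlation of -0.04 over 10275 regions). Leaving out chromosomes 2, 9 and 17, or chromosome 2 and the distal parts of 9 and 17 (added after seeing the data), left 0 calls and a ratio of 1.78.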
